A study of Mus musculus with 38 samples.

Results

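Translation initiation factor genes were taken as the protein-coding genes whose symbols run from Eif1 to Eif6. The regulators Eif4ebp1, Eif4ebp2, Eif4ebp3, Eif4e1b and Eif4enif1 were left out. The rule found 49 of the 23125 genes of the table. They fall into 5 genes of the Eif1 group, 5 of Eif2, 4 kinases of Eif2 (Eif2ak), 5 of Eif2b, 14 of Eif3, 11 of Eif4, 4 of Eif5 and Eif6 alone. Their RNA was followed in polysomes, the mRNAs that carry several ribosomes, and in the lighter non-polysome part of sucrose gradients. The cells were GV oocytes (prophase of meiosis), MII oocytes (metaphase of the second meiotic division), zygotes and two-cell embryos, both in interphase, and M-phase embryos of these stages (named zygote M and two-cell M).

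All oocytes and embryos came from ICR females at least 6 weeks old that had been primed with PMSG. GV and MII oocytes had been freed of cumulus cells, and MII oocytes had matured in culture. Embryos came from females that also received hCG and were mated, and M-phase embryos were held with 10 µM nocodazole, so that M-phase and drug cannot be told apart in them. Each of the 12 groups held 3 libraries (replicates A, B and C, and in zygotes B, C and D), which the submitters call biological triplicates.

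Initiation begins when Eif2, carrying the initiator tRNA and GTP, joins the small ribosomal subunit with Eif1, Eif1a, Eif3 and Eif5. The complex is brought to the mRNA cap by Eif4e, Eif4g and the helicase Eif4a, scans to the start codon, and is joined there by the large subunit with the help of Eif5b. Eif2b then reloads Eif2 with GTP, a step that the Eif2ak kinases block by phosphorylating Eif2s1. Fully grown oocytes have stopped transcription and draw on stored mRNAs, while mouse embryos start their own main wave of transcription at the two-cell stage, so RNA in two-cell polysomes can be stored or newly made.

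Levels below are in exon FPKM, fragments per kilobase of exons scaled to the mapped fragments of each library. The table divides by the whole genomic span of a gene and adds 0.01 to each value, so exon FPKM was computed from it. Fold changes were computed on log2 of the values as deposited, unless another scale, setting or a count of fragments is named. The 0.01 weighs most where a level is low and the gene is long. Such fold changes can be smaller than the ratio of the exon FPKM values beside them. Group means were taken on log2 values, so a single very low library can instead make a fold change larger than that ratio. Of the 49 genes, 40 had a geometric mean of at least 0.1 deposited FPKM over the 36 libraries and were tested. Eif1a, Eif2a, Eif2ak2, Eif2ak4, Eif2b5, Eif2s3x, Eif3j1, Eif4g3 and Eif5a2 were below it. A gene was called changed at an adjusted p under 0.05 (limma, Benjamini-Hochberg over all genes tested) and a change of more than 2-fold.

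The value steps of the table imply between 8484042 and 26621801 fragments per library. Replicates of a group correlated with r between 0.584 in two-cell non-polysome libraries and 0.961 in zygote polysome libraries. Genes of the table held 72.0% to 77.1% of the mapped fragments in GV polysome libraries and 28.96% to 38.99% in two-cell M polysome libraries. Oocyte markers, 10 of 10 in the table, summed to 18184 to 19350 exon FPKM in GV polysomes and to 148 to 804 in two-cell M polysomes. Two-cell embryo markers, 6 of 6 in the table, summed to 193 to 360 in GV, 162 to 251 in two-cell and 20.5 to 191 in two-cell M polysomes. Outside polysomes they were highest in two-cell embryos, at 624 to 1003. There they summed to 160 to 222 in GV, 53.9 to 119 in zygote and 56.1 to 562 in two-cell M libraries. Sperm markers, 2 of 4 in the table, summed to 7.31 to 24.8 in GV and 13.3 to 25.7 in MII polysomes, from unfertilised oocytes. They summed to 10.3 to 33.5 in two-cell polysomes and to 0 in two-cell M polysomes and two-cell non-polysome libraries, so they do not mark sperm here. Markers of blood, of which 4 of 5 were in the table, all haemoglobin genes, summed to at most 1.82 exon FPKM in any GV, MII, zygote or zygote M library. They summed to 46.9 to 114 in two-cell polysomes and 33.4 to 58.1 in two-cell M polysomes, with Hbb-bt at 0 in both. Outside polysomes they summed to 136 to 222 in two-cell and 0 to 71.8 in two-cell M libraries. The 10 cumulus and granulosa markers summed to at most 18.05 in any polysome library and reached 55.1 in an MII and 52.6 in a two-cell non-polysome library, where the medians were 5.55 and 1.19. The part of such RNA in the values below was not tested. In these pooled cells, fewer cells of a type and less RNA per cell cannot be told apart.

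The starts of the genes are shown first, since many mRNAs of the translation machinery begin with a C followed by a run of pyrimidines, the TOP motif. RefSeq promoter entries (GRCm38.p6) matched 40 of the 49 genes, with 50 entries. A start at C followed by at least 4 bases that are C or T, read on the gene's strand, was present in 2 members, Eif3f and Eif2s3x, which is 4% of the members' entries against 2.51% of all 32851 entries. A run of at least 8 bases of C or T within 5 bases of the start, which includes the first pattern where that is long enough, was present in 6 members, Eif2ak4, Eif2b2, Eif2b5, Eif2s3x, Eif3f and Eif3l, which is 12% of their entries against 5.76% of all. The windows below hold 10 bases before and 20 from the annotated start, and capitals mark runs of at least 5 C or T that reach within 5 bases of it. They are those of Eif3f (chr7:108934405-108934434, plus strand), Eif3l (chr15:79075213-79075242, plus), Eif2b2 (chr12:85219471-85219500, plus), Eif1 (chr11:100319939-100319968, plus), Eif1b (chr9:120492596-120492625, plus), Eif2b4 (chr5:31193120-31193149, minus) and Eif4a3 (chr11:119300024-119300053, minus), all members that differed between stages in polysomes. Eif3f, Eif3l and Eif2b2 are the only tested members with the long run. Eif5a, Eif3k and Eif2ak3 also differed between stages, lack that run and are not shown.
Eif3f: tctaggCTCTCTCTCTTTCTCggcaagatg
Eif3l: gagTTCTTCTTCCgCTCTCTCCCacgggct
Eif2b2: ccgagcggaagttgaCCTCTCTCggcccgg
Eif1: ggcgtcacaggggcggctatataagtgaat
Eif1b: gcgcggggctaaatacgcggcgccggccat
Eif2b4: cccagtgcacgccggaagttgtagtccgct
Eif4a3: cgccttacatccggTTCCCgccgcggcttg

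The 3′ ends were read because stored mRNAs of oocytes are polyadenylated in the cytoplasm through elements there. TTTTAT or TTTTAAT stood in the last 100 bases of the longest coding transcript (GENCODE vM21, mRNA strand) of 5 members, Eif1a, Eif1ax, Eif3j2, Eif3m and Eif4e3, which is 10.2% of members against 16.6% of 21875 protein-coding genes. The poly(A) signal AATAAA or ATTAAA stood in the last 40 bases of 34 members, 69.4% against 70.0% of all genes. These shares describe the letters in the windows and no more. The last 30 bases, with the signal in capitals, are shown for Eif1 (chr11:100322067-100322096, plus), Eif2b2 (chr12:85226599-85226628, plus), Eif2b4 (chr5:31187558-31187587, minus), Eif5a (chr11:69916720-69916749, minus) and Eif6 (chr2:155819832-155819861, minus), and for Eif4e3 the 30 bases around the TTTTAT that begins 98 bases from its end.
Eif1: cttatttaAATAAAgcttgttttcagaaac
Eif2b2: tacaAATAAAagcagtttctccgtacaact
Eif2b4: cAATAAAaagcttactccctactcccatga
Eif5a: acctgAATAAAactacaagtttaatatgaa
Eif6: cccATTAAAggactgcctcccaccatcctc
Eif4e3: tttgagaaaaTTTTATttttgaactttatt

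A few members made up most of the polysome RNA of the family. Averaged over the 18 polysome libraries, Eif6, which keeps the large ribosomal subunit from joining too early, stood at 657 exon FPKM and held 24.3% of the members' sum. Eif1b, a close copy of Eif1, followed at 532 and Eif1, which guards the choice of start codon, at 315. Next came Eif3i (235), Eif5a (147), Eif2b1 (114), Eif3k (110), Eif4a3 (104), Eif2b2 (86.1) and Eif2b4 (66.7), and these 10 genes together held 87.5% of the sum. At the other end, 14 members stayed under 20 exon FPKM in all 36 libraries, among them the scaffold Eif4g1 and the subunit joining factor Eif5b, and 25 were at 0 in at least 1 library. Members with shorter exon sequence had higher levels: Spearman's rho between exon length and mean level was -0.68 in polysomes and -0.60 in the non-polysome part, over 49 genes that share the same libraries. Exon FPKM is itself divided by exon length, so a negative rho is partly built in and is given as a description only.

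**Figure D1:**
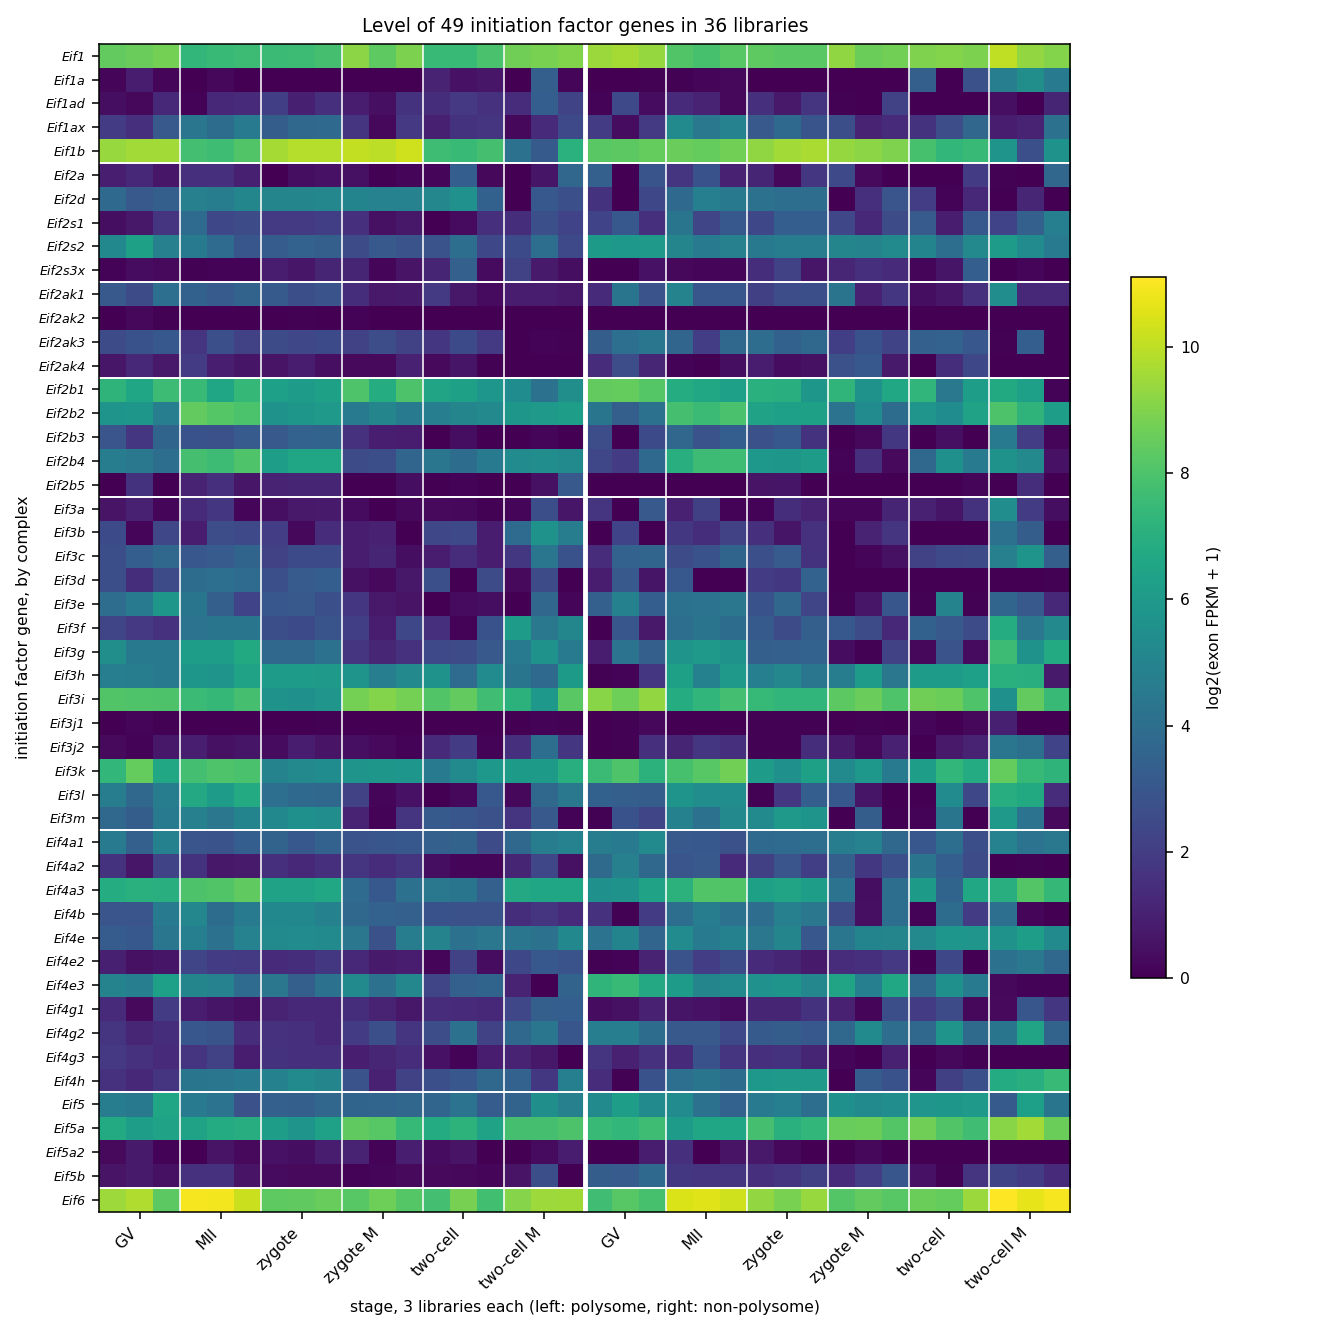
Level of each of the 49 genes (vertical, by complex) in each of the 36 libraries (horizontal, by fraction and stage), as log2 of exon FPKM plus 1. Eif6, Eif1b and Eif1 are high in nearly all libraries, and most Eif2ak, Eif3 and Eif4g genes are low.

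Subunits of one complex did not stand at one level. Within Eif3, the large scaffold around which the pre-initiation complex is built, the WD repeat subunit Eif3i averaged 235 exon FPKM in polysomes while Eif3j1 averaged 0.0264. Summed over its 14 genes, Eif3 stood at 604 ± 98.1 exon FPKM in GV polysomes, 757 ± 76.4 in MII, 247 ± 10.5 in zygotes, 572 ± 37.3 in zygote M, 374 ± 39.0 in two-cell embryos and 426 ± 158 in two-cell M (SD, n = 3). Eif2b, the exchange factor for Eif2, was at 672 ± 88.8 in MII polysomes and between 125 and 246 on average in the other stages, and its lowest MII library (579.6) was above the highest library of any other stage (292.9). The 4 Eif2ak kinases summed to 16.3 ± 6.38 exon FPKM in GV polysomes and to 0.821 ± 0.0996 in two-cell M polysomes.

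Most members varied between stages. By limma's moderated F-test, 26 of the 40 tested members differed over the 6 stages in polysomes and 30 of 40 in the non-polysome part, beside 62.9% and 78.3% of all genes tested, so these shares were close to those of all genes. In polysomes they included 3 of 4 Eif1 group genes, 2 of 3 of Eif2, both tested kinases, 3 of 4 of Eif2b, 9 of 13 of Eif3, 5 of 10 of Eif4, 1 of 3 of Eif5 and Eif6. Eif4e, the cap-binding protein itself, did not pass in either fraction (adjusted p = 0.132 in polysomes and 0.0836 outside them, the latter 0.0404 and called on RPM, which is FPKM not divided by length), nor did the scaffold Eif4g1 (0.120 and 0.491). Eif3a, the core of Eif3, had the adjusted p-values 0.547 and 0.470.

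Entry into meiotic M-phase was read from MII against GV polysomes. The exchange factor genes Eif2b2 and Eif2b4 and Eif6 rose, and Eif1 fell. Each moved the same way outside polysomes, so these changes were not particular to polysomes, and none was called in the interaction given below. In fragments, GV and MII non-polysome libraries held 340 to 754 and 7968 to 8937 of Eif2b2, and 158 to 622 and 7482 to 12219 of Eif2b4. They held 11473 to 16639 and 72020 to 99536 of Eif6, and 17452 to 23691 and 8152 to 9035 of Eif1. Of 40 members, 3 rose, where 3.36% of all genes did, and 1 fell, where 2.75% did. By sign alone 29 of 40 members were higher in MII, with a median log2 fold change of 0.91 beside 0.18 over all genes. After quantile normalization 7 members rose and 5 fell, with 701 and 844 of all genes in place of 268 and 219.

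Eif2b2, the beta subunit of Eif2b, was at 52.5, 57.1 and 25.8 exon FPKM in the GV polysome libraries and at 345, 286 and 244 in MII. The MII values all lie above the GV values, and the log2 fold change was 2.76 ± 0.47 (SE, adjusted p = 0.00026). Eif2b4, the delta subunit, was at 24.7, 20.9 and 14.9 exon FPKM in GV and rose to 225, 194 and 263, with a log2 fold change of 3.51 ± 1.06 (adjusted p = 0.0457). The groups do not overlap, but this call was lost whichever of the 6 libraries was left out, with an adjusted p between 0.0893 and 0.147. Eif6 went from 711, 885 and 311 exon FPKM to 1967, 1904 and 1186, a log2 fold change of 1.5 ± 0.33 (adjusted p = 0.00431), lost without GV replicate C (adjusted p = 0.0528). Eif1 went the other way, from 347, 380 and 443 exon FPKM in GV to 161, 185 and 197 in MII, with a log2 change of -1.11 ± 0.24 (adjusted p = 0.00389), and its 3 MII libraries are all below its 3 GV libraries.

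The first mitosis was read from zygote M against zygote polysomes. Eif1, Eif3i and Eif5a rose and Eif2b4 fell, so that Eif1 and Eif2b4 changed in the opposite direction to that of meiosis. The count was 3 of 40 members up, where 3.24% of all genes rose, and 1 down, where 2.51% fell. By sign alone 30 of 40 members were lower, with a median log2 fold change of -1.12 beside -0.43 over all genes. After quantile normalization 2 members rose and 8 fell, with 666 and 496 of all genes, and on RPM 3 and 5, with 263 and 349 of all genes, in place of 258 and 200.

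Eif3i was at 49.9, 45.8 and 53.5 exon FPKM in the zygote polysome libraries and at 440, 525 and 439 in zygote M (log2 fold change 3.23 ± 0.52, adjusted p = 9.98e-05). Eif5a, which relieves ribosomes that stall during elongation, was at 74.5, 52.5 and 80.3 in zygotes and 331, 300 and 172 in zygote M (1.92 ± 0.34, adjusted p = 0.000292). Both groups are apart in each gene, and the lowest zygote M library of Eif5a is replicate C. Eif1 went from 188, 192 and 229 exon FPKM to 568, 325 and 478 (log2 fold change 1.14 ± 0.24, adjusted p = 0.00289), and without zygote M replicate A its log2 fold change of 0.96 was under the threshold. Eif2b4 went from 73.9, 91.1 and 95 exon FPKM to 4.88, 5.42 and 11.5 (log2 fold change -3.68 ± 1.06, adjusted p = 0.0349), a call lost without any of 5 of the 6 libraries (all but zygote M replicate C), with an adjusted p up to 0.126.

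The second mitosis was read from two-cell M against two-cell polysomes. More members rose than fell, while over all genes more fell than rose on deposited values and about as many under quantile normalization. Eif1, Eif2s1, Eif3c, Eif3f, Eif4a1, Eif4a2, Eif4a3, Eif4e2, Eif5a and Eif6 rose, and Eif1b, Eif2ak3, Eif2d and Eif4e3 fell. The 10 members that rose are set beside 8.13% of all genes, and the 4 that fell beside 28.1%. The members' median log2 fold change was 1.07 and that of all genes -1.17. With each library rescaled to the fragments in genes of the table, the median of all genes was -0.61, 13 members rose and 2 fell, with 900 and 1759 of all genes in place of 648 and 2242. After quantile normalization 17 members rose and 2 fell, with 1482 and 1490 of all genes and a median of all genes of 0.22. Fitted on only these groups, Eif1, Eif2ak3 and Eif4a3 kept their calls and Eif1b, Eif2d, Eif2s1, Eif3c, Eif3f, Eif4a1, Eif4a2, Eif4e2, Eif4e3, Eif5a and Eif6 lost theirs at the same log2 differences, and Eif2ak3 was lost with 1 FPKM added and after quantile normalization.

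Eif1 rose from 182, 177 and 238 exon FPKM to 410, 463 and 508 (log2 fold change 1.22 ± 0.24, adjusted p = 0.0003). Eif1b fell from 200, 177 and 222 to 17.2, 7.71 and 135 (-2.92 ± 0.66, adjusted p = 0.00101), and two-cell M replicate C held far more of it than A and B. The paralogs therefore moved apart: Eif1 made up 49.9% of the sum of both in two-cell polysomes and 89.6% in two-cell M polysomes, where single libraries ranged from 79.0% to 98.4%. Over the other stages the share was 35.1% in GV, 44.0% in MII, 19.0% in zygotes and 29% in zygote M. The processed pseudogenes Eif1-ps1 and Eif1-ps2 are listed with reads of their own, at 0.943 to 38.3 exon FPKM in polysomes, so part of the Eif1 values is uncertain.

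Eif3f, a subunit of the Eif3 core, was at 1.83, 0.0757 and 5.91 exon FPKM in two-cell polysomes and at 69.7, 20.5 and 33.6 in two-cell M (log2 fold change 5.09 ± 1.22, adjusted p = 0.00181). Its call was kept whichever library was left out, at log2 fold changes from 3.45 (without two-cell replicate B) to 6.33. Its start carries the pyrimidine run shown above. Eif3c, another core subunit, rose by a log2 fold change of 2.59 ± 0.87 (adjusted p = 0.021), from 0.837, 1.67 and 0.82 exon FPKM to 2.48, 19.5 and 5.93. The Eif3c call was lost without two-cell replicate A or C or two-cell M replicate B (adjusted p up to 0.140).

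All 3 Eif4a helicases were called higher on deposited values, and on RPM only Eif4a3 was. Eif4a1, the main helicase of the cap complex, went from 9.69, 10.5 and 4.85 exon FPKM to 12.1, 24.5 and 29.1 (log2 fold change 1.38 ± 0.54, adjusted p = 0.0462). Eif4a2, its close copy, went from 0.325, 0.0986 and 0.158 to 1.21, 4.15 and 0.404 (2.73 ± 0.85, adjusted p = 0.0129). Eif4a3, the helicase of the exon junction complex, went from 20.8, 18.7 and 9.44 to 102, 90.6 and 92.3 (2.61 ± 0.88, adjusted p = 0.0216). In all 3 genes each two-cell M library is above each two-cell library, by the widest margin in Eif4a3. The calls rest on single libraries: Eif4a1 was lost without two-cell A or C or two-cell M B or C (adjusted p up to 0.197), Eif4a2 without two-cell B or two-cell M B (up to 0.108) and Eif4a3 without two-cell C or two-cell M A (up to 0.086). A processed pseudogene, Eif4a-ps4, stood at 14.0 to 222 exon FPKM in polysomes, above Eif4a1 itself in part, so reads may have been split between them.

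Eif5a rose from 114, 144 and 81.9 exon FPKM to 226, 226 and 257 (log2 fold change 1.09 ± 0.34, adjusted p = 0.012) and was lost without two-cell replicate C, at a log2 fold change of 0.88. Eif6 rose from 217, 454 and 210 to 545, 699 and 739 (1.26 ± 0.33, adjusted p = 0.00423), with two-cell replicate B the nearest to the M-phase values. Eif4e2, a cap-binding relative that can repress translation, rose from 0.104, 3.5 and 0.279 to 4.23, 7.22 and 6.22 (3.43 ± 1.23, adjusted p = 0.0307) and kept its call only without two-cell replicate B (adjusted p up to 0.175 otherwise). Eif2s1, the subunit that the Eif2ak kinases phosphorylate, was at 0, 0.253 and 1.83 against 1.75, 5.53 and 3.73, so the groups overlap (3.24 ± 1.05, adjusted p = 0.0168), and it was lost without two-cell A or two-cell M B (adjusted p up to 0.150).

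Among those that fell, Eif2ak3 (PERK), the Eif2 kinase of the endoplasmic reticulum, was at 2.4, 4.67 and 2.68 exon FPKM in two-cell polysomes and at 0, 0.086 and 0.0372 in two-cell M (log2 fold change -4.31 ± 0.97, adjusted p = 0.000991). The means of 3.25 and 0.0411 exon FPKM lie further apart than this fold change, since Eif2ak3 is a long gene and its low values are held up by the 0.01 in the table. Eif2d, which can deliver tRNA to the ribosome without GTP, was at 34, 47.4 and 10 against 0, 7.35 and 5.51 (-4.07 ± 1.52, adjusted p = 0.037). The difference of Eif2d rests on two-cell M replicate A, without which its log2 fold change was -1.98 (adjusted p = 0.331), and its call was also lost without two-cell A or B. Eif4e3, a further cap-binding relative, was at 4, 9.65 and 11 against 1.15, 0.0276 and 10.6, with overlapping groups (-2.46 ± 0.92, adjusted p = 0.0369). Its call was lost without two-cell B or C or two-cell M A or B (adjusted p up to 0.367).

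**Figure D2:**
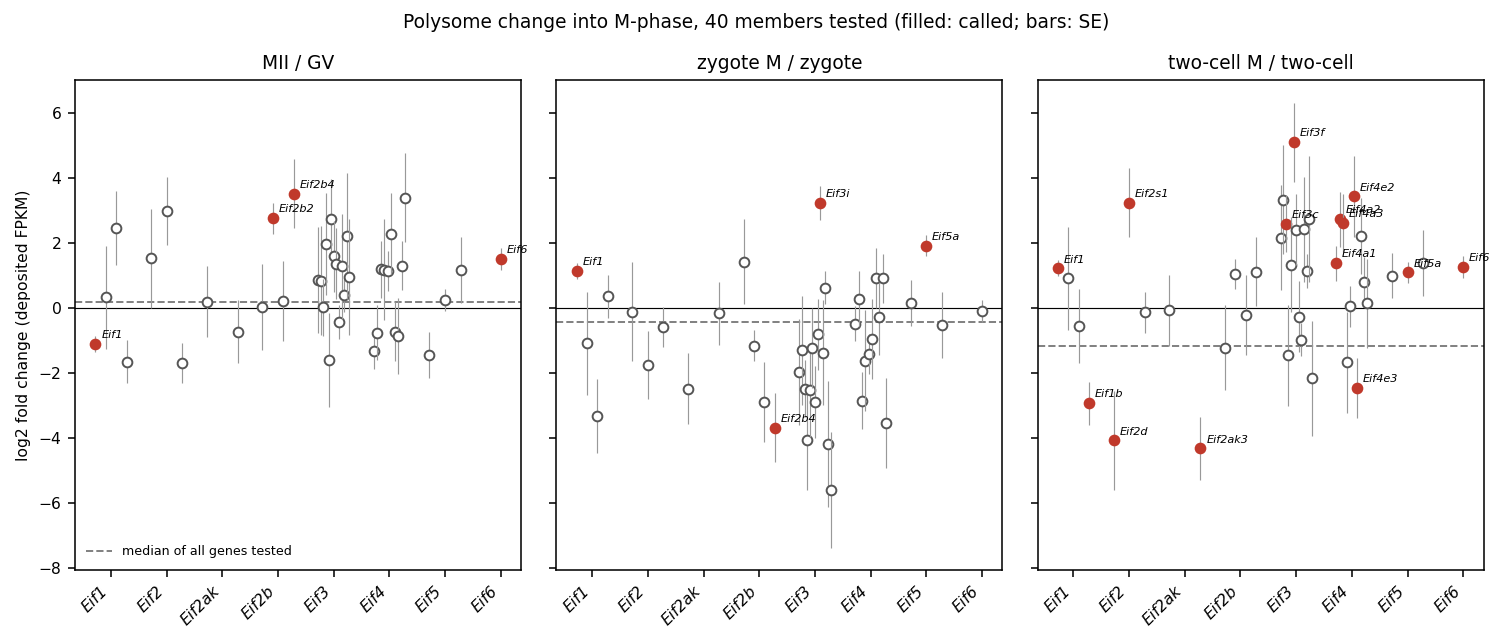
Log2 fold change of deposited FPKM of each tested member, by complex, in MII against GV, zygote M against zygote and two-cell M against two-cell polysomes. Filled points were called, bars are SE, and the dashed line is the median of all genes tested (0.18, -0.43 and -1.17).

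Eif1 was called in each of the 3 M-phase comparisons, lower in meiosis and higher in both mitoses. The groups of these comparisons are used again below, so the comparisons that follow are not independent of them.

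Oocyte and embryo interphases were compared through GV against zygote and GV against two-cell polysomes. In GV against zygote, Eif2s2, Eif3i and Eif3k were higher in the oocyte, 3 of 40 members where 3.88% of all genes were higher, and none was lower, where 1.73% were. With no call of a lower level, 8 members reached an unadjusted p under 0.05 in either direction by limma, as did 1344 of all 7967 genes tested. Rescaled to the fragments in genes of the table, 2 members were higher and 1 lower, with 241 and 177 of all genes in place of 309 and 138. After quantile normalization 5 members were higher and 3 lower, with 763 and 647 of all genes. On RPM, Eif4h (log2 difference -3.89, adjusted p = 0.0134) and Eif4e (-1.82, adjusted p = 0.0437) were called lower in GV, with no overlap between groups, against adjusted p-values of 0.0845 and 0.0869 on deposited values. In GV against two-cell, 8 members were higher in the oocyte (12.3% of all genes) and none lower (4.39% of all genes), and 17 reached an unadjusted p under 0.05, as did 2426 of all 7967 genes. Rescaling left 5 higher and 1 lower, without the calls of Eif3c, Eif4a3 and Eif6, with 570 and 518 of all genes in place of 981 and 350. After quantile normalization 9 members were higher and 3 lower, with 1033 and 1023 of all genes.

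Eif2s2, the beta subunit of Eif2, was at 34.9, 77.8 and 27.2 exon FPKM in GV polysomes, at 8.27, 10.1 and 9.21 in zygotes and at 6.23, 15.4 and 4.27 in two-cell embryos. All GV libraries are above those of both embryos (log2 fold change 2.18, adjusted p = 0.0332 against zygotes and 2.48, adjusted p = 0.00575 against two-cell embryos). The first of these was lost without GV A or B or any zygote library (adjusted p up to 0.239). Eif3k, a peripheral Eif3 subunit, was at 164, 351 and 101 in GV, 30.4, 36.6 and 40.9 in zygotes and 22.8, 37.1 and 59.2 in two-cell embryos (2.33, adjusted p = 0.00452 and 2.28, adjusted p = 0.00258), and its call against zygotes was lost without GV replicate B (adjusted p = 0.0692).

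Eif3i was at 267, 260 and 253 in GV polysomes, above its zygote values given before (log2 fold change 2.39, adjusted p = 0.00373), while its two-cell values of 270, 343 and 204 overlap those of GV. Eif3e, a subunit that binds the cap complex, was at 14.6, 22.3 and 57.7 in GV and at 0, 0.253 and 0.313 in two-cell embryos (6.15 ± 1.45, adjusted p = 0.00353). The other members called higher in GV than in two-cell embryos were Eif2b3 (4.53, adjusted p = 0.0106), Eif3c (2.92, adjusted p = 0.0203), Eif4a2 (3.16, adjusted p = 0.00995), Eif4a3 (3.0, adjusted p = 0.0183) and Eif6 (1.08, adjusted p = 0.0248), the last with overlapping groups. These 5 calls each depended on 1 or more libraries: Eif2b3 (adjusted p = 0.0543) and Eif4a2 (0.0719) on GV C, Eif4a3 on GV C or two-cell C (up to 0.0797), Eif3c on GV B or C or two-cell A or C (up to 0.0786) and Eif6 on GV A or B or two-cell A or C (up to 0.149).

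Meiotic and mitotic M-phases were compared directly. In MII against zygote M polysomes, 10 of 40 members were higher in MII, where 8.95% of all genes were, and 3 were lower, where 3.4% were. The members' median log2 fold change was 1.90 beside 0.46 over all genes. After quantile normalization 13 members were higher and 4 lower, with 1014 and 1068 of all genes in place of 713 and 271, and the median of all genes was -0.23. The higher ones were Eif1ax, Eif2b2, Eif2b4, Eif3c, Eif3d, Eif3g, Eif3k, Eif3l, Eif4a3 and Eif6, and the lower ones Eif1, Eif1b and Eif5a.

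Eif3 supplied 5 of the 10. Eif3l was at 104, 66.9 and 109 exon FPKM in MII and 3.43, 0.122 and 0.459 in zygote M (log2 fold change 6.91 ± 1.93, adjusted p = 0.0162), lost without MII A or C or zygote M B or C (adjusted p up to 0.093). Eif3g, which contacts the scanning mRNA, was at 70.5, 73.4 and 107 against 2.27, 1.29 and 2.02 (5.47, adjusted p = 0.000855) and kept its call without any one library. The Eif3d call (4.99, adjusted p = 0.0327) was lost whichever library was left out (0.0595 to 0.117).

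Eif2b2 (log2 fold change 3.50, adjusted p = 6.18e-06) and Eif2b4 (5.06, adjusted p = 0.0014) kept their calls without any one library, as did Eif4a3, at 255, 267 and 337 exon FPKM in MII against 13.9, 7.28 and 17.1 in zygote M (4.56, adjusted p = 0.000612), and Eif6 (2.35, adjusted p = 1.25e-05). Eif1ax, the X-linked gene for the scanning factor eIF1A, was at 19.5, 14.3 and 23.8 against 2.3, 0.193 and 2.6 (4.07, adjusted p = 0.0161), and was lost without MII A or C or zygote M B (adjusted p up to 0.156). Eif1b, lower in MII (220, 202 and 269 against 1081, 1027 and 1244), had a log2 fold change of -2.28 (adjusted p = 0.0196), lost without MII A or B or zygote M A or C (adjusted p up to 0.0695). Eif5a was also lower (-1.32, adjusted p = 0.00781), lost without MII A or zygote M A (adjusted p up to 0.0572).

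In MII against two-cell M polysomes the counts turned with the scaling. On deposited values 12 of 40 members were higher in MII, where 45.2% of all genes were, and 4 were lower, where 7.86% were. After rescaling to fragments in genes of the table, which moved the median of all genes from 2.64 to 1.48, 5 members were higher and 9 lower, with 2457 and 1005 of all genes in place of 3598 and 626. After quantile normalization 4 members were higher and 13 lower, with 1835 and 1808 of all genes. Relative to the median of all genes on deposited values, the members' median of 1.25 was lower.

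Among the 12 called higher, the 10 with the largest difference were Eif1ax, Eif1b, Eif2ak1, Eif2ak3, Eif2b2, Eif2b3, Eif2b4, Eif2d, Eif3d and Eif4e3, with log2 fold changes between 2.16 and 5.03. Eif3l (4.44, adjusted p = 0.0542), Eif3m (4.09, adjusted p = 0.0535) and Eif4b (3.6, adjusted p = 0.0519) were as far apart but were called on RPM alone, and quantile normalization turned the sign of Eif2ak1 and Eif2ak3 and ended the calls of Eif1ax, Eif2b3, Eif2d, Eif3d and Eif4e3. Of these, Eif1ax (adjusted p = 0.0522) was lost without two-cell M replicate A, Eif3d (0.0711) without two-cell M replicate C, Eif2d without MII C or two-cell M A (up to 0.244) and Eif2b4 whichever library was left out (0.0794 to 0.107). The 4 lower members were Eif1 (-1.35, adjusted p = 4.79e-05), Eif4a1 (-1.50), Eif4g1 (-3.59, adjusted p = 0.0113) and Eif5a (-1.19). Eif4g1, the scaffold that links cap, helicase and Eif3, was at 0.823, 0.544 and 0.359 exon FPKM in MII and at 4.22, 9.22 and 8.87 in two-cell M polysomes, with no overlap. Eif4a1 was lost without MII A or B or two-cell M B or C (adjusted p up to 0.0741).

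**Figure D3:**
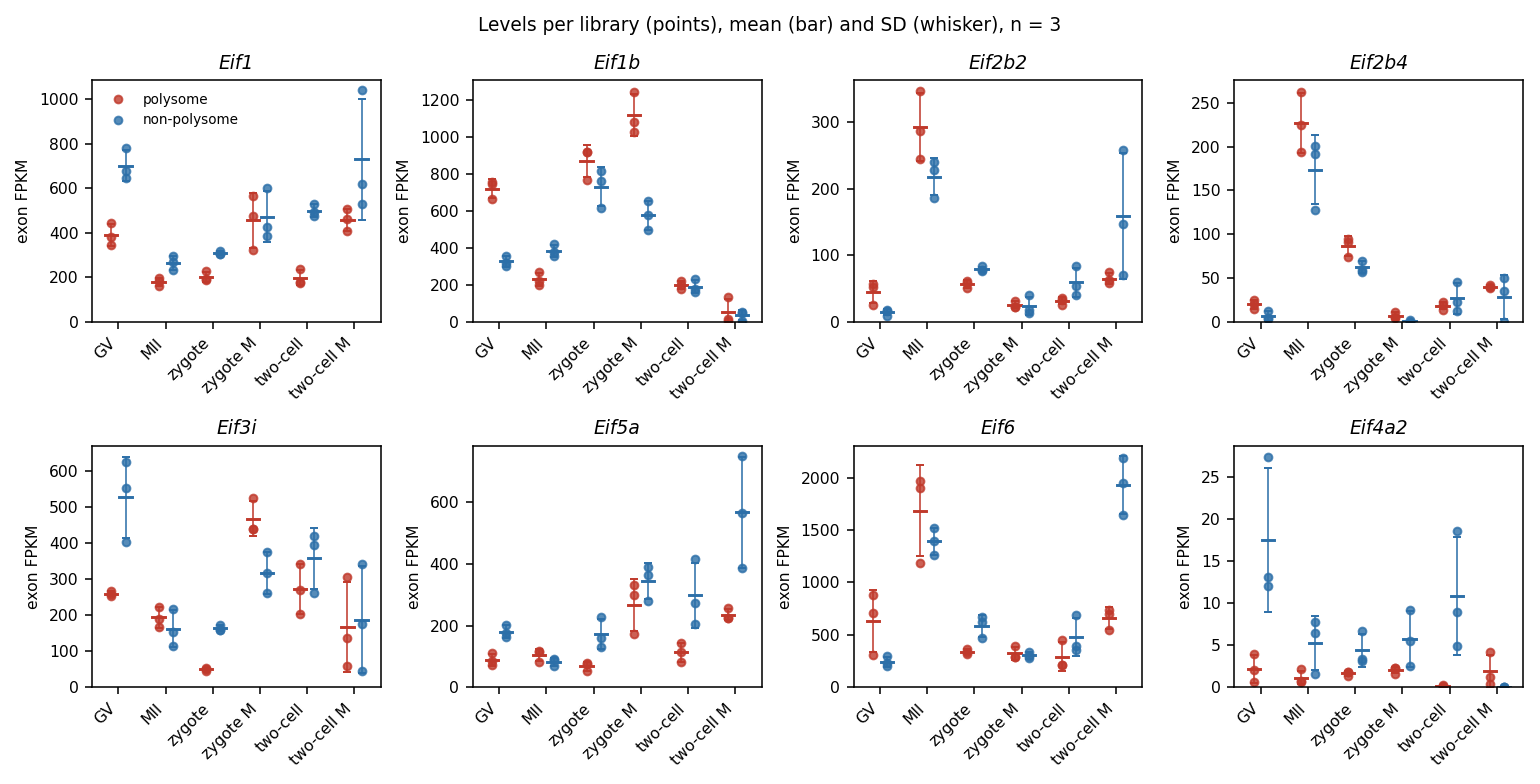
Exon FPKM of Eif1, Eif1b, Eif2b2, Eif2b4, Eif3i, Eif5a, Eif6 and Eif4a2 in each library by stage, for both fractions, with the mean and SD of 3 libraries (linear axes from 0). In polysomes Eif2b2 and Eif2b4 peak in MII (244 to 345 and 194 to 263), Eif3i is lowest in zygotes (45.8 to 53.5), and Eif1b is lowest in two-cell M (7.71 to 135).

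Polysome and non-polysome libraries of the same stage were then compared. Each library is scaled to its own total, so a ratio says how a gene stood relative to other RNAs in the fraction, and not what share of its molecules was in polysomes. In GV oocytes Eif2b2, Eif3h and Eif6 were higher in polysomes, 3 of 40 members where 2.61% of all genes were, and Eif4a2, Eif4g2 and Eif5b were lower, 3 where 2.35% were. Eif4g2, an Eif4g relative without the Eif4e-binding part, was at 2.14, 1.29 and 1.74 exon FPKM in GV polysomes and at 25.9, 25.6 and 14.2 outside them (log2 fold change -3.64, adjusted p = 0.00398). Eif5b, the GTPase of subunit joining, was at 0.499, 0.733 and 0.403 in polysomes and 8.63, 8 and 13 outside (-4.01, adjusted p = 0.0187). Neither gene has overlapping groups, and the Eif5b call was lost without GV polysome A or C or non-polysome B (adjusted p up to 0.0713).

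Eif6 was at 206, 295 and 229 exon FPKM in the GV non-polysome part, below each of its GV polysome values (log2 fold change 1.27, adjusted p = 0.0242). Eif2b2 had a log2 fold change of 1.58 (adjusted p = 0.0493), Eif3h of 4.49 (adjusted p = 0.0144) and Eif4a2 of -3.22 (adjusted p = 0.0242). All 4 calls were lost without GV polysome A. They were also lost without polysome B or non-polysome A for Eif6 (adjusted p up to 0.146), polysome B or non-polysome A or B for Eif2b2 (up to 0.269), non-polysome A or B for Eif3h (up to 0.0859) and polysome B or non-polysome B for Eif4a2 (up to 0.147). After quantile normalization 2 members were higher and 4 lower, with 308 and 569 of all genes in place of 208 and 187. With only these groups fitted the calls of Eif2b2, Eif3h, Eif4a2 and Eif6 were lost. A replicate block ended those of Eif2b2 (adjusted p = 0.0876) and Eif3h (0.0558).

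In MII oocytes no member was called either way by limma, where 0.0502% of all genes were higher and 0.703% lower in polysomes. An unadjusted p under 0.05 was reached by 3 members and by 489 of all 7967 genes. The fit on RPM also called 0. In zygotes 0 members were higher (0.0377% of all genes) and only Eif5a was lower (1.34% of all genes), at 74.5, 52.5 and 80.3 exon FPKM in polysomes and 227, 130 and 161 outside (log2 fold change -1.31, adjusted p = 0.0426). That call was lost without any of 5 of the 6 libraries (all but non-polysome C, adjusted p up to 0.373). In zygote M, 1 member was higher (1.43% of all genes), Eif2b4 (4.18, adjusted p = 0.0347), and 2 were lower (0.49% of all genes), Eif2s2 (-2.45, adjusted p = 0.0344) and Eif5b (-3.98, adjusted p = 0.0344). The Eif2s2 call was lost whichever library was left out (0.0541 to 0.145), and those of Eif2b4 (all but non-polysome B, up to 0.162) and Eif5b (all but non-polysome A, up to 0.138) without 5 of the 6. With a replicate block the calls of Eif2b4 (adjusted p = 0.0555) and Eif2s2 (0.0906) were also lost.

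In interphase two-cell embryos 10 members differed between the fractions. Eif1ad, Eif2d and Eif3b were higher in polysomes, 3 of 40 where 9.69% of all genes were, and Eif1, Eif2s1, Eif2s2, Eif3k, Eif4a2, Eif5 and Eif5a were lower, 7 where 6.38% were. Eif4a2 had the largest difference of those that were lower, 0.325, 0.0986 and 0.158 exon FPKM in polysomes against 18.6, 8.96 and 4.95 outside (log2 fold change -5.59, adjusted p = 5.85e-05). Eif1 was at 493, 531 and 477 outside polysomes, above its 3 polysome values (-1.34, adjusted p = 0.000408), and Eif5a at 415, 274 and 206 (-1.37, adjusted p = 0.00587). After quantile normalization the calls of Eif1 (adjusted p = 0.105), Eif3b, Eif3k, Eif5 and Eif5a (adjusted p = 0.136) were lost, and with only these groups fitted those of Eif2d, Eif2s1, Eif2s2, Eif3k and Eif5a (adjusted p = 0.0834).

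Eif1ad, named for a domain shared with Eif1a, was at 1.70, 2.55 and 2.01 exon FPKM in two-cell polysomes and at 0 in all 3 non-polysome libraries, at least 30.3-fold higher when each non-polysome library is set at 3 fragments, a limit for counting error only. Eif2d (4.80, adjusted p = 0.0303), Eif3b (4.85, adjusted p = 0.0464), Eif2s1 (-3.41, adjusted p = 0.0257), Eif2s2 (-1.78, adjusted p = 0.0485), Eif3k (-1.56, adjusted p = 0.0376) and Eif5 (-2.29, adjusted p = 0.024), the factor that makes Eif2 hydrolyse GTP, were all lost without two-cell polysome A. Further losses came without polysome B or non-polysome B for Eif2d (adjusted p up to 0.153), polysome B or non-polysome A, B or C for Eif3b (up to 0.132) and polysome B or non-polysome A or C for Eif2s1 (up to 0.182). They came without polysome C or non-polysome A or C for Eif2s2 (up to 0.195), polysome B or non-polysome B or C for Eif3k (up to 0.173) and polysome C or non-polysome B for Eif5 (up to 0.090). Eif2s1 and Eif2s2 have overlapping groups. A replicate block also ended the calls of Eif2s2 (adjusted p = 0.0930) and Eif3b (0.0860). Rescaled to the fragments in genes of the table, 5 members were higher and 5 lower, with 937 and 372 of all genes in place of 772 and 508.

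In two-cell M embryos 1 member was higher in polysomes (9.7% of all genes), Eif4a2, and 4 were lower (5.06% of all genes), Eif2b3, Eif2s2, Eif5a and Eif6. With libraries rescaled to the fragments in genes of the table, 3 members were higher and 1 lower, with 1234 and 199 of all genes in place of 773 and 403. Eif4a2 was at 1.21, 4.15 and 0.404 exon FPKM in polysomes and at 0.0256, 0.0368 and 0 outside (log2 fold change 5.08, adjusted p = 9.74e-05). Eif6 was at 545, 699 and 739 in polysomes and 2190, 1643 and 1949 outside (-1.55, adjusted p = 0.00186). Eif2s2 (-2.52, adjusted p = 0.00578) kept its call without any one library, Eif5a (-1.22, adjusted p = 0.0134) lost it without non-polysome B (adjusted p = 0.0611), and Eif2b3 (-3.67, adjusted p = 0.0421), with overlapping groups, lost it without any of 5 of the 6 libraries (all but non-polysome C, adjusted p up to 0.261). Fitted on only these groups, 0 of the 5 were called, with adjusted p = 0.217 for Eif4a2, 0.0846 for Eif6, 0.237 for Eif2s2, 0.162 for Eif5a and 0.424 for Eif2b3. Quantile normalization kept the Eif2b3 call alone, and with 1 FPKM added Eif4a2 and Eif2b3 were not called.

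**Figure D4:**
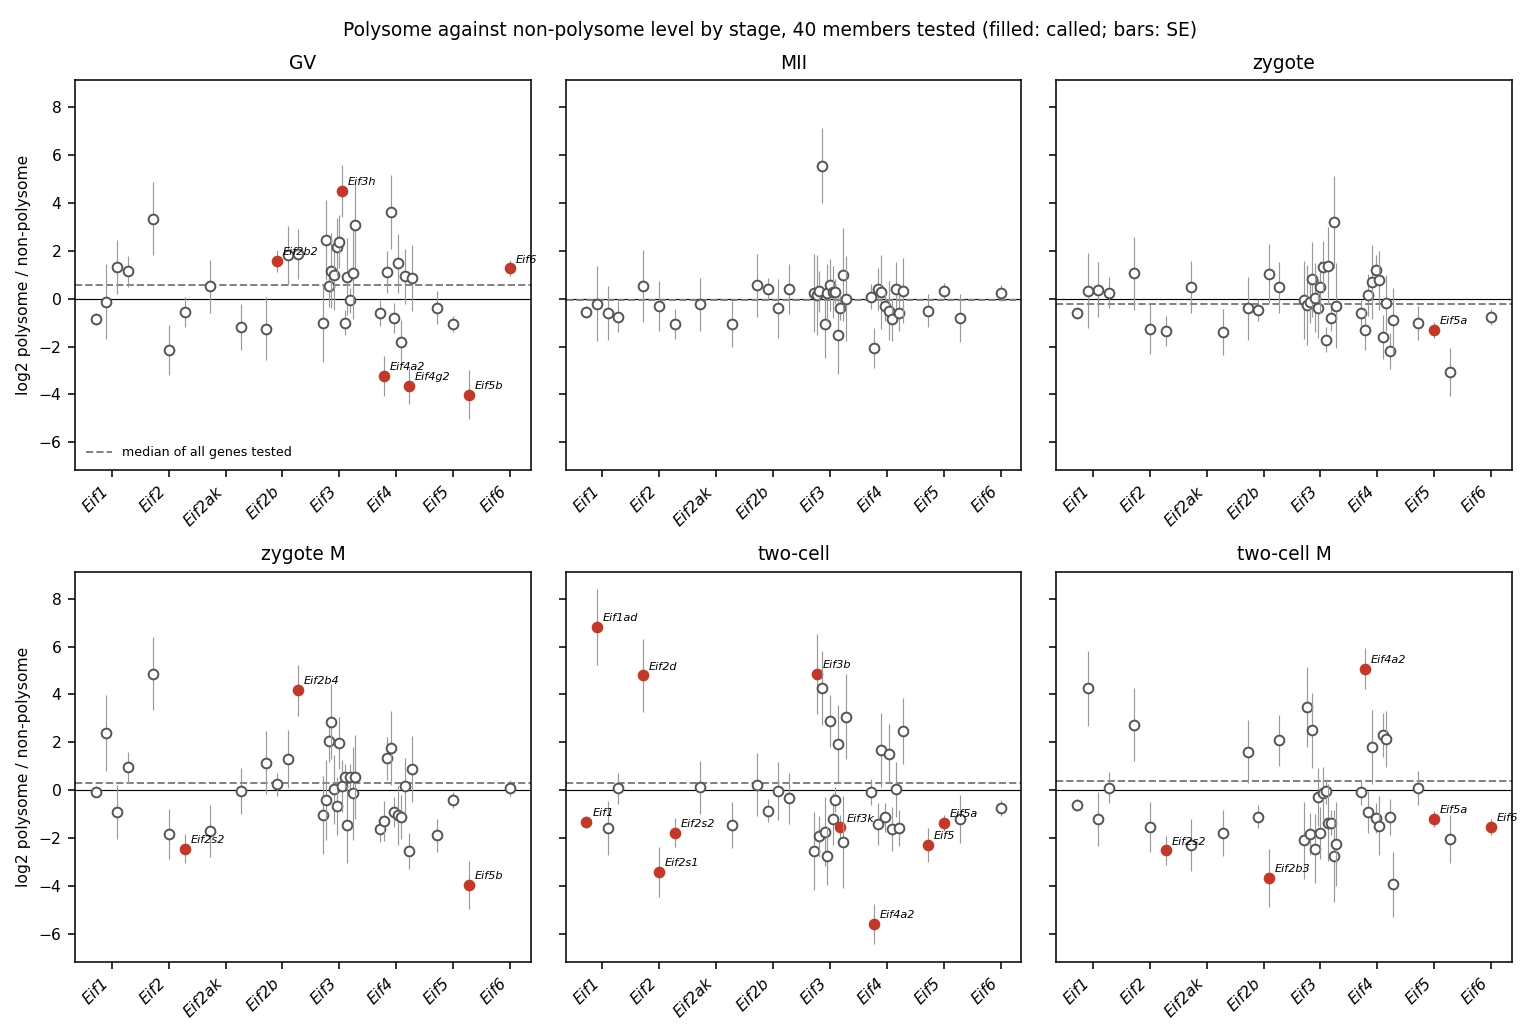
Log2 fold change of deposited FPKM in polysome against non-polysome libraries of each stage, for each tested member by complex. Filled points were called and bars are SE. No member is filled in MII, and Eif4a2 is filled below 0 in two-cell embryos (-5.59) and above 0 in two-cell M embryos (5.08).

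Whether a change at M-phase differed between the fractions was tested as an interaction. For MII against GV 0 members were called (0.113% of all genes in the positive and 0.0502% in the negative direction), and for zygote M against zygote 0 (0.289% and 0% of all genes). An unadjusted p under 0.05 was reached by 5 and 3 members, and by 587 and 599 of all 7967 genes. For the second mitosis, Eif4a2 was called with a positive difference, 1 of 40 members where 3.2% of all genes were, and Eif4h with a negative one, where 2.55% were. Rescaled, 2 members were positive and 0 negative, with 326 and 163 of all genes in place of 255 and 203, and Eif4h was lost. The Eif4a2 difference was 10.67 ± 1.20 on the log2 scale (adjusted p = 5.1e-07) and was called without any one of the 12 libraries. It rests on few fragments in 2 of the 4 groups: 38 in the 3 two-cell polysome libraries against 1840 outside polysomes, and 280 in two-cell M polysomes against 2 outside. Scaled to the fragments of the libraries, that last ratio was 118 (95% exact interval 32.3 to 978, counting error only). Eif4h, a cofactor of the Eif4a helicase, was at 5.61, 7.14 and 12.6 exon FPKM in two-cell and 10.2, 2.47 and 26.7 in two-cell M polysomes, and at 0.0959, 3.24 and 5.49 and then 114, 127 and 177 outside. Its difference of -6.41 ± 1.94 (adjusted p = 0.0475) was lost without any of 9 of the 12 libraries (all but two-cell non-polysome B and C and two-cell M polysome C, adjusted p up to 0.127). A replicate block also ended this call of Eif4h (adjusted p = 0.0682).

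Shares within 3 other paralog pairs in polysomes are given as a description. Eif4e made up 21.2% of the sum with Eif4e3 in GV, 49% in MII, 71.3% in zygotes, 36.4% in zygote M, 73.2% in two-cell embryos and 85.9% in two-cell M. Eif1ax made up at least 92.4% of its sum with the autosomal Eif1a on average up to zygote M, 70.2% in two-cell embryos and 39.9% in two-cell M polysomes, where single libraries ranged from 14.5% to 100%. Eif5a made up at least 99.2% of its sum with Eif5a2 at every stage. These shares were not tested.

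Regulators and partners of initiation outside the rule were counted on a list of 34 genes, of which 26 were tested. In MII against GV, 1 rose (Dohh, an enzyme that modifies Eif5a) and 0 fell, with a list median of -0.51, beside 3.36% and 2.75% of all genes. In zygote M against zygote 0 were called, beside 3.24% and 2.51% of all genes. Dohh was at 1.61, 0 and 1.64 exon FPKM in GV polysomes and at 50, 70.6 and 43.5 in MII (log2 fold change 6.79, adjusted p = 0.0144). The size rests on GV replicate B, at 0, without which the log2 fold change was 5.01 and the call was lost, as it was without MII replicate B (adjusted p up to 0.155). At the second mitosis, 5 rose (Abce1, Ddx3x, Denr, Dohh and Mknk2) and 2 fell, the oocyte cap-binding protein Eif4e1b (-6.81, adjusted p = 5.46e-06) and the oocyte poly(A)-binding protein Pabpc1l (-5.43, adjusted p = 0.000563), with a list median of 1.33, beside 8.13% and 28.1% of all genes. Pabpc1l was at 178, 104 and 110 exon FPKM in two-cell polysomes and at 12.3, 0.059 and 12.3 in two-cell M. Without two-cell M replicate B the log2 fold change was -3.36, and the call was kept whichever library was left out but lost with only these groups fitted (adjusted p = 0.0791). The calls of Abce1, Denr and Mknk2 were each lost without at least 1 library (adjusted p up to 0.122), while those of Ddx3x, Dohh and Eif4e1b were kept.

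Among the partners, GV against zygote gave 0 calls (3.88% of all genes higher and 1.73% lower), as did MII against zygote M (8.95% and 3.4%). GV against two-cell gave 3 higher and 0 lower (12.3% and 4.39% of all genes). MII against two-cell M gave 6 higher and 7 lower, of 26 where 45.2% of all genes were higher and 7.86% lower. The helicase Ddx3x was lower in polysomes than outside them in GV (-3.51), zygote (-3.75), zygote M (-2.79) and two-cell embryos (-2.76), with adjusted p-values between 0.00271 and 0.0362. Those of GV and zygotes were kept whichever library was left out, that of two-cell embryos was lost without non-polysome C, and that of zygote M was kept only without non-polysome A. The zygote M call of Ddx3x was also lost with a replicate block (adjusted p = 0.0786). In these stages the only other partner called was Pabpc1l, higher in GV polysomes (3.98, adjusted p = 0.0410), and lost without non-polysome B or any one polysome library (adjusted p up to 0.398). A replicate block ended this Pabpc1l call as well (adjusted p = 0.0621). In MII 0 were called, where 0.0502% of all genes were higher and 0.703% lower. Lower in polysomes were 2.35% of all genes in GV, 1.34% in zygotes, 0.49% in zygote M and 6.38% in two-cell embryos, and higher in GV 2.61%. In two-cell M embryos 5 partners were higher in polysomes, Atf4, Eif4e1b, Mknk1, Pabpc1l and Pabpc4, and 1 was lower, Dnajc3, beside 9.7% and 5.06% of all genes. Only the calls of Mknk1 and Pabpc4 were kept whichever library was left out, and with only these groups fitted 0 of the 6 were called. That of Pabpc1l was also lost with a replicate block (adjusted p = 0.0582). The poly(A)-binding protein gene Pabpc4 was the only partner called in an interaction, in the second mitosis (5.17, adjusted p = 0.0011), where 3.2% of all genes were called with a positive difference. That call was kept whichever library was left out and lost with 1 FPKM added, after quantile normalization and with only these groups fitted (adjusted p up to 0.259).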

How the data were processed

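The submitters made RNA libraries with a poly(A)-primed Smart-seq kit from 5 pooled gradient fractions of 10 for each of polysomes and non-polysomes, and the notes name Trim Galore 0.4.1, STAR 2.5.3a, Partek and GRCm38. The deposited table holds normalized FPKM for 36 of 38 samples, and both fractions of 1 zygote sample were not analysed here. After 0.01 was subtracted and the value multiplied by the genomic span, 77.6% to 85.3% of low values were whole multiples of a step within 0.05 reads, against 15.9% to 21.5% with exon lengths. Exon FPKM was therefore recomputed from the deposited FPKM with exon lengths of GENCODE vM21.

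Deposited FPKM values were taken to log2 without a pseudocount, and limma (version 3.58.1, R 4.3.3) estimated 12 group means from every library together. Contrasts were tested two-sided with Benjamini-Hochberg adjustment, and the fit was also run on simulated data. The simulation gave a gene the same spread in every group, so it cannot show whether a shared estimate of the spread holds here. Adding 1 FPKM, no minimum, quantile normalization, fits of only the groups compared, a replicate block, leaving out each library, rescaling to fragments in genes and log2 of RPM plus 1 were tried, the last 2 added after the data were seen. The members, the list of partners and the markers were chosen with earlier results of these data known. Named members are all those called, or the 10 with the largest change where over 10 were called in a direction, with core factors, paralogs and the extremes of each complex.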

Additional observations from a re-analysis of the deposited data

Results flagged for a closer look

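The change of Eif4a2 from two-cell to two-cell M embryos differed between polysomes and the non-polysome part by 10.67 on the log2 scale (interaction in limma, adjusted p = 5.1e-07). The level rose in all 3 polysome libraries against all 3 two-cell ones and was lower in all 3 non-polysome libraries. On RPM the difference was 6.63. Its gene lies at chr16:23107444-23114137 on the plus strand (GRCm38, the stop as the table gives it).

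Eif4h differed in the opposite direction, by -6.41 on the log2 scale (adjusted p = 0.0475), since its non-polysome level was higher in all 3 two-cell M libraries while its polysome levels overlapped. On RPM the difference was -5.84 (adjusted p = 0.0104). The call was lost with no minimum, after quantile normalization, after rescaling, with a replicate block and with only these groups fitted (adjusted p up to 0.207). What lies behind either difference was not tested.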

How the results depend on the processing

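Of 89 calls of members over 16 comparisons, 71 were kept with 1 FPKM added, 74 with no minimum, 63 with quantile normalization, 53 with only the groups compared, 77 with a replicate block, 69 after rescaling to fragments in genes of the table and 84 on RPM. Whichever library was left out, 41 were kept, and 23 were kept under every setting run. Same-lettered libraries deviated together with a mean correlation of 0.076 across fractions and 0.020 and 0.018 across stages, and not each pair passed 0.1. Same-lettered fractions of a stage may share a gradient, which the labels do not say, so the samples were fitted unpaired. The replicate block left 1 member called in the two-cell interaction, gave 4, 0, 1, 2, 8 and 5 between the fractions from GV to two-cell M, and moved no other count of members by over 1.5 times. The cause of the changes below was not tested.

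With 1 FPKM added, 14 members were called in MII against GV, 10 in zygote M against zygote and 8 in GV against zygote, where 988 and 616, 364 and 536, and 708 and 596 of all genes were called higher and lower, and between the fractions 1 in MII and 10 in two-cell M. With no minimum, 1 was called in the two-cell interaction. With quantile normalization the counts were 12, 10 and 8 in the first 3 of these comparisons, 5 between the fractions in zygote M, 1 in two-cell M, and 1 in each of the MII and two-cell interactions. In MII against two-cell M polysomes it turned Eif2ak1 to -0.81 (adjusted p = 0.459) and Eif2ak3 to -0.12 (adjusted p = 0.925). With only the groups compared, 14 were called in MII against GV, 18 in zygote M against zygote, 4 in two-cell M against two-cell, 12 in GV against zygote and 23 in MII against zygote M. Between the fractions the counts were then 2 in GV, 12 in zygotes, 1 in zygote M, 5 in two-cell embryos and 0 in two-cell M, with 1 in each interaction. Calls over all genes under this fit are not given here, so these counts are not read as a result about the members. Rescaled to fragments in genes, 0 were called between the fractions in zygotes. On RPM, 8 were called in zygote M against zygote, 5 in GV against zygote and 0 between the fractions in zygotes.

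Leaving out 1 library gave 2 to 3 members called in MII against GV, 2 to 4 in zygote M against zygote, 8 to 14 in two-cell M against two-cell, 1 to 5 in GV against zygote, 4 to 8 in GV against two-cell, 8 to 11 in MII against zygote M and 13 to 18 in MII against two-cell M. Between the fractions it gave 1 to 6 in GV, 0 to 1 in MII, in zygotes and in zygote M, 4 to 9 in two-cell embryos and 3 to 10 in two-cell M. The interactions gave 0, 0 and 1 to 4, and the stage effects 25 to 27 in polysomes and 28 to 33 outside. Rescaling to fragments in genes moved the median of all genes in polysomes by 0.56 in two-cell M against two-cell, -0.24 in GV against zygote, -0.62 in GV against two-cell, -0.24 in MII against zygote M and -1.16 in MII against two-cell M, and between fractions by 0.11 to 0.62 in the 4 embryo groups. Of the 49 members, 25 were at 0 in at least 1 library, as Eif2a, with 552.4, 0 and 297 fragments in the GV non-polysome libraries.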

Other observations

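Of the 9 members below the minimum for testing, 4 were called on RPM. Eif2ak4 and Eif4g3 were called in MII against two-cell M polysomes and over stages in both fractions, Eif1a between the fractions of two-cell M embryos and over non-polysome stages, and Eif2s3x over non-polysome stages. Eif1a, the autosomal gene of the scanning factor eIF1A, was at 25.8, 43.5 and 23.2 exon FPKM in the two-cell M non-polysome libraries. In polysomes of that stage it was at 0, 9.29 and 0.151, and in GV, MII, zygote and zygote M libraries of either fraction it was at most 0.792. Eif2ak4, the kinase that senses amino acid shortage, was at 0 in all 6 two-cell M libraries of both fractions and at 2.86, 0.917 and 0.539 in MII polysomes.

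Eif4e3 fell out of view in the non-polysome part of two-cell M embryos, at 0.195, 0.0937 and 0.0696 exon FPKM, after 12.6, 46.1 and 23.1 in two-cell embryos and 151, 176 and 101 in GV oocytes. Eif6, in contrast, stood at 2190, 1643 and 1949 exon FPKM in that fraction, above each of its values in the other 5 stages of it (206 to 1520).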
